A study of Mus musculus with 12 samples.

Results

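The genes described here are 41 mouse genes whose proteins fold other proteins inside the endoplasmic reticulum (ER). They comprise 17 chaperones and their cofactors, 17 members of the protein disulphide isomerase (PDI) family with the ER oxidases, and 7 peptidyl-prolyl isomerases. They were taken by symbol from a list, out of 53801 gene identifiers in the count tables. All 41 had reads enough to be tested, so none was lost to the filter on low counts.

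The libraries were made from poly-A RNA of C2C12, an established line of mouse myoblasts, the dividing precursors of muscle fibres. The design crossed a knockdown of Cebpg, which encodes the transcription factor C/EBPγ, with a treatment of 6 h. Sh2-Thap cells carried the knockdown and received thapsigargin, Ctrl-Thap cells received thapsigargin without it, Sh2-DMSO cells carried the knockdown in the solvent DMSO, and Ctrl-DMSO cells had the solvent alone. There were 3 libraries per group, hence 12 altogether. Thapsigargin blocks the SERCA pump, which drains calcium from the ER and disturbs folding there. Sh2 is a single knockdown label, and the labels do not state what Ctrl cells received in its place. The loss of Cebpg and any other lasting difference between Sh2 and Ctrl cells cannot be told apart. HeLa is written in the growth protocol, but C2C12 in the fields for source and cell line.

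Secreted and membrane proteins fold in the ER with the help of chaperones, of enzymes that make and rearrange disulphide bonds, and of enzymes that turn peptide bonds before proline. When unfolded chains accumulate, the sensors IRE1, PERK and ATF6 start the unfolded protein response, which raises transcription of many of these genes. ATF6 and the spliced form of XBP1 bind ER stress elements in promoters, and the PERK arm acts through ATF4, a partner with which C/EBPγ can form a dimer. Myoblasts also secrete collagen, which needs its own chaperone and several prolyl isomerases of the ER.

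The promoters of the members were searched for the letters of 4 stress elements on both strands, in RefSeq windows of GRCm38.p6 that run from 250 bases before to 50 after each start. Of the 41 genes, 34 had a window, Ero1l through its synonym. These 34 genes had 43 windows, so some had more than 1, and a gene counts when any of its windows holds the letters. Shares of genes and shares of windows are therefore unlike units. The ER stress element, ERSE, was searched as CCAAT, any 9 bases and CCACG, and ERSE-II as ATTGG, any base and CCACG. The unfolded protein response element, UPRE, was searched as TGACGTGG and the composite C/EBP-ATF element, CARE, as TGATGNAAT. ERSE letters stood in 8 of the 34 genes (23.5%) and in 39 of all 32851 promoter windows (0.119%). They are printed here because these 8 genes include the best-known targets of the response. Each site reads 5′ to 3′ in the direction that puts the CCAAT box first, with capitals for the fixed letters. Positions are counted from the RefSeq transcription start, which is base 1.
Hspa5, chr2:34772025-34772043, from -65 to -47: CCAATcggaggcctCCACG
Hsp90b1 far, chr10:86705638-86705656, from -212 to -194: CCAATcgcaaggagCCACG
Hsp90b1 near, chr10:86705533-86705551, from -107 to -89: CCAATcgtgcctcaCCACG
Calr, chr8:84847075-84847093, from -162 to -144: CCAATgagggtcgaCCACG
Canx, chr11:50325800-50325818, from -145 to -127: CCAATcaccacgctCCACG
Creld2, chr15:88819520-88819538, from -126 to -108: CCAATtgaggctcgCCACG
Dnajc3, chr14:118937827-118937845, from -105 to -87: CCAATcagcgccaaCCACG
Pdia6, chr12:17266491-17266509, from -98 to -80: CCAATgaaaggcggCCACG
Ero1lb, chr13:12565682-12565700, from -201 to -183: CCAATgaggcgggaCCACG
ERSE-II letters stood in 1 member, Dnajb11, as ATTGGcCCACG at chr16:22857852-22857862, against 0.0365% of all windows. UPRE letters stood in 2 members, Txndc5 and Txndc11, against 0.676% of all windows, and CARE letters in 0 of the 34, against 0.965%. No match overlapped another. By class, 7 of 13 chaperone genes with a window held any of the 4 elements (53.8%), 4 of 15 PDI and oxidase genes did (26.7%), and 0 of 6 prolyl isomerase genes did. Counted by window, 11 of the 43 windows of members held any of them, where 1.77% of all windows did. A match of letters is a description and not a measured site.

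The 250 bases before the RefSeq start are shown for 3 genes with large changes, Hspa5 with 1 ERSE, Hsp90b1 with 2 in opposite directions, and Ero1l with none of the letters searched. The gene spans given below come from GENCODE, whose outermost start lies within these bases. It is at 34771970 for Hspa5, 86705509 for Hsp90b1 and 45318771 for Ero1l. Part of each stretch, and the ERSE of Hspa5, thus lies inside the GENCODE gene. Bases of Ero1l farther upstream than this stretch were not searched. Capitals mark the ERSE.
Hspa5, chr2:34771840-34772089, plus strand: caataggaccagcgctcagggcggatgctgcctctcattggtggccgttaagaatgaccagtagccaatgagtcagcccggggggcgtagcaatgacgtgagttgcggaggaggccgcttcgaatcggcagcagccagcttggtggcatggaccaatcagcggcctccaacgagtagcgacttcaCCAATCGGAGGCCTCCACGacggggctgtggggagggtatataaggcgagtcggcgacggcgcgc
Hsp90b1, chr10:86705445-86705694, minus strand: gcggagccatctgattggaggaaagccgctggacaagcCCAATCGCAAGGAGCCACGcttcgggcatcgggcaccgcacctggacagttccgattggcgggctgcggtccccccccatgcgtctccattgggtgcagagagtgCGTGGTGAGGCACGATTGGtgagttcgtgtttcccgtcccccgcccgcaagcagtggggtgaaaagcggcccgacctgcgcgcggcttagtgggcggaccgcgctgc
Ero1l, chr14:45318573-45318822, minus strand: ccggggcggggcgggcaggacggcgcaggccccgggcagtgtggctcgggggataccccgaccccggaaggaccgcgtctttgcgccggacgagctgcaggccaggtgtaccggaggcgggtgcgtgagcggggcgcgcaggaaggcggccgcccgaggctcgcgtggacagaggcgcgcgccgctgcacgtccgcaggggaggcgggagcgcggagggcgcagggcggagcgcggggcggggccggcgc

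**Figure D1:**
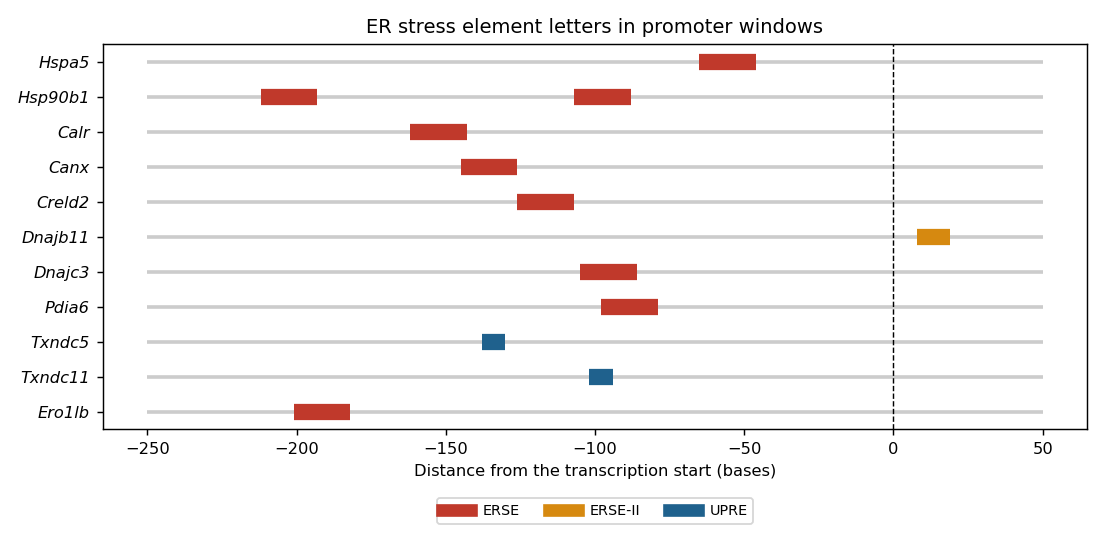
Positions of matched element letters in the promoter windows of the 11 members that held any, on an axis of distance from the transcription start in bases. Grey lines are the windows, and coloured bars are ERSE, ERSE-II and UPRE letters. The ERSE bars lie before the RefSeq start in all 8 genes, and the ERSE-II bar of Dnajb11 lies just after it.

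Levels are gene reads scaled to library size by TMM (normalised CPM), and levels of different genes are compared per 1000 exon bases (per kb). Exon bases are the merged exons of all annotated transcripts of a gene. These can exceed the main transcript, so orders of different genes per kb are approximate. Libraries held 29.425 to 47.72 M gene reads. Changes are log2 differences with an approximate SE, tested with edgeR's quasi-likelihood test over all 15828 genes that passed the filter, with Benjamini-Hochberg adjustment and a call under 0.05. The labels do not say whether libraries of a group are separate cultures, and the p-values therefore cover the spread among these libraries alone, which may be technical. Cebpg averaged 5.66 ± 0.419 CPM in Sh2-Thap, against 216 ± 3.96 CPM in Ctrl-Thap, and 4.51 ± 0.722 CPM in Sh2-DMSO, against 54.6 ± 5.2 CPM in Ctrl-DMSO (SD, 3 libraries each). Of 7 myoblast markers, 6 or 7 had at least 1 CPM in each group, and their sum was 1329 to 1915 CPM. The sum hides opposite changes. Myf5 averaged 416 CPM in Sh2-Thap and 252 CPM in Ctrl-Thap, against 73.6 CPM in Sh2-DMSO and 61.8 CPM in Ctrl-DMSO. The other 6 myoblast markers were called lower with thapsigargin in both populations. Of all genes tested, 34.4% were lower in Sh2 cells and 37.0% in Ctrl cells. Summed leukocyte markers reached 3.17 to 8.49 CPM and adipocyte markers 0.815 to 1.89 CPM, each over 5 genes, with up to 2 of the 5 at 0 in a group. The 5 epithelial markers summed to 6.67 to 8.07 CPM in Sh2-Thap and 2.65 to 3.12 CPM in Ctrl-Thap, against 0.531 to 0.925 CPM in Sh2-DMSO and 0.172 to 0.349 CPM in Ctrl-DMSO, where 2 were at 0. The 5 endothelial markers summed to 18.4 to 21.1 CPM in Sh2-Thap and 27.5 to 32.3 CPM in Ctrl-Thap, against 5.9 to 6.95 CPM in Sh2-DMSO and 4.19 to 5.12 CPM in Ctrl-DMSO. The part of these markers in the results was not tested.

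The 41 genes together held 3.04 ± 0.0204% of gene reads in Sh2-Thap and 4.86 ± 0.0492% in Ctrl-Thap, against 1.19 ± 0.00854% in Sh2-DMSO and 1.25 ± 0.019% in Ctrl-DMSO. Hspa5 alone held 36.9% to 38.0% of the members' reads in Sh2-Thap and 40.7% to 41.9% in Ctrl-Thap, against 10.5% to 10.9% in Sh2-DMSO and 13.2% to 13.7% in Ctrl-DMSO. Without Hspa5 the other 40 genes still summed to 17869.7 CPM in Sh2-Thap and 29445 CPM in Ctrl-Thap, against 10852 CPM in Sh2-DMSO and 10887 CPM in Ctrl-DMSO. The classes parted. Chaperone genes held 2.26% of gene reads in Sh2-Thap and 3.75% in Ctrl-Thap, against 0.662% in Sh2-DMSO and 0.72% in Ctrl-DMSO. PDI and oxidase genes held 0.702% in Sh2-Thap and 1.04% in Ctrl-Thap, against 0.449% in Sh2-DMSO and 0.452% in Ctrl-DMSO. Prolyl isomerase genes held 0.0717% in Sh2-Thap and 0.0693% in Ctrl-Thap, against 0.0767% in Sh2-DMSO and 0.0793% in Ctrl-DMSO, and their order between Sh2-Thap and Ctrl-Thap turns with the scaling, since the summed normalised levels were 672 CPM in Sh2-Thap and 713 CPM in Ctrl-Thap. The prolyl isomerase sums include Ppib, whose count may lack reads, as described below. In bulk RNA, a change of RNA per cell and a change in the mix of cells cannot be told apart.

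**Figure D2:**
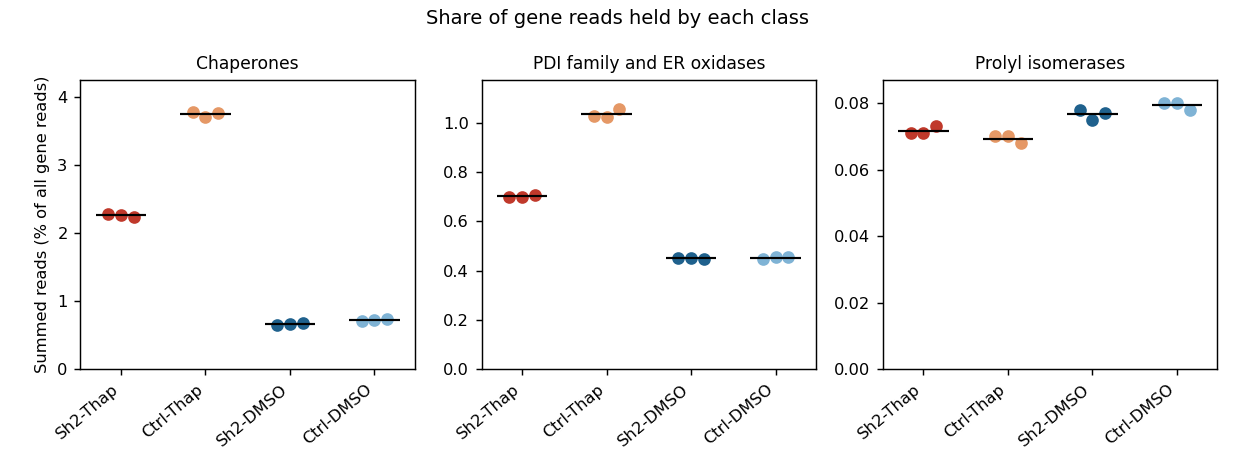
Share of all gene reads (%) held by the chaperone, PDI and oxidase, and prolyl isomerase genes in each library (points), with group means as horizontal lines and axes that start at 0. For chaperones and for the PDI family the 3 Ctrl-Thap libraries lie above the 3 Sh2-Thap libraries, which lie above all DMSO libraries, while the prolyl isomerase share stays between 0.068% and 0.08%.

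Comparisons in the text share libraries, so their counts are not independent of each other. With thapsigargin in Sh2 cells, 25 of the 41 members rose, 12 fell and 4 were not called, with a median log2 change of 0.36 where the median over all genes tested was 0.001. Among all genes 35.4% were called higher and 34.4% lower. A log2 rise of 1 or more was found for 10 members and a fall of that size for 0, where 13.2% of all genes rose and 6.39% fell as much. The rise was 2 or more for 5 members, where 6.37% of all genes rose so far. When only total gene reads set the scale, the median of all genes tested moved up by 0.119 in Sh2 cells, and 60.4% of the genes called were higher in place of 50.8%. With thapsigargin in Ctrl cells, 30 members rose, 10 fell and 1 was not called, with a median log2 change of 0.62 where the median over all genes tested was 0. Over all genes tested, 37.7% were called higher and 37.0% lower. By at least 1 in log2, 16 members rose and 0 fell, where 16.1% of all genes rose and 10.2% fell by that much, and 9 members rose by at least 2, where 8.52% did.

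The chaperone genes held most of the added reads. Of 17, 13 rose, 1 fell and 3 were not called in Sh2 cells (median 0.93), and 16 rose and 1 fell in Ctrl cells (median 1.63). The shares of all genes tested were 35.4% higher and 34.4% lower in Sh2 cells, and 37.7% and 37.0% in Ctrl cells. Hspa5 encodes BiP, the main ER member of the heat-shock 70 family, which binds unfolded chains and keeps the stress sensors inactive. The gene spans chr2:34771970-34777547 on the plus strand (GRCm38). It had 10906, 10939 and 10381 CPM in Sh2-Thap and 21097, 20524 and 20558 CPM in Ctrl-Thap, against 1278, 1294 and 1321 CPM in Sh2-DMSO and 1636, 1707 and 1748 CPM in Ctrl-DMSO. The 4 groups did not overlap, and the Ctrl-Thap libraries were highest. The level was 8.28-fold higher with thapsigargin in Sh2 cells (log2 3.05, SE 0.04) and 12.2-fold higher in Ctrl cells (log2 3.61, SE 0.05, edgeR adjusted p = 1.09e-34). Hsp90b1 encodes GRP94, the ER member of the heat-shock 90 family. It had 1816, 1817 and 1668 CPM in Sh2-Thap and 3895, 3738 and 3912 CPM in Ctrl-Thap, against 571, 574 and 596 CPM in Sh2-DMSO and 601, 595 and 632 CPM in Ctrl-DMSO. Its DMSO groups overlapped, so the separation of Sh2 from Ctrl cells appeared with thapsigargin, where the fold over DMSO was 3.05 in Sh2 cells and 6.32 in Ctrl cells.

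The cofactors that drive the cycle of BiP rose to different extents, and among them Sil1 and Dnajb11 were chosen after their values were seen. Hyou1 encodes GRP170, which releases nucleotide from BiP, and averaged 975 ± 17.5 CPM in Sh2-Thap and 2126 ± 39.2 CPM in Ctrl-Thap, against 232 ± 3.94 CPM in Sh2-DMSO and 279.9 ± 6.98 CPM in Ctrl-DMSO. Sil1, the other exchange factor, averaged 23.6 ± 0.946 CPM in Sh2-Thap and 28.1 ± 0.828 CPM in Ctrl-Thap, against 16.8 ± 1.27 CPM in Sh2-DMSO and 21.1 ± 0.889 CPM in Ctrl-DMSO. Its thapsigargin change was 0.48 in Sh2 cells and 0.41 in Ctrl cells, and the difference of 0.07 had a 95% interval from -0.13 to 0.26, which was not called. J-domain proteins hand chains to BiP. Among them Dnajc3, which encodes the cochaperone p58IPK, had 420.0, 408 and 391 CPM in Sh2-Thap and 1019, 1016 and 1026 CPM in Ctrl-Thap, against 119, 119.8 and 125 CPM in Sh2-DMSO and 153, 157 and 172 CPM in Ctrl-DMSO. The rise was 1.74 in Sh2 cells and 2.66 in Ctrl cells. Sdf2l1, which joins the complex of the J protein ERdj3, rose by 2.87 in Sh2 cells and 3.50 in Ctrl cells. Dnajb11 encodes ERdj3 itself and rose by 0.93 in Sh2 cells and 1.73 in Ctrl cells.

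Dnajc10 was the chaperone member that fell. It encodes ERdj5, a J protein with thioredoxin domains that reduces disulphides of proteins bound for degradation. It had 193, 196 and 190.3 CPM in Sh2-Thap and 254, 254 and 242 CPM in Ctrl-Thap, against 246, 239 and 249 CPM in Sh2-DMSO and 273, 276 and 279 CPM in Ctrl-DMSO. The fall was small, -0.34 in Sh2 cells and -0.14 in Ctrl cells (SE 0.04 each, edgeR adjusted p = 7.39e-09 and 0.00231), and without overlap of the libraries in either population.

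The related genes Creld1 and Creld2 moved unequally. Creld2, a secreted stress-inducible protein, averaged 612 ± 17.8 CPM in Sh2-Thap and 1033 ± 15.2 CPM in Ctrl-Thap, against 91.8 ± 1.46 CPM in Sh2-DMSO and 112 ± 1.43 CPM in Ctrl-DMSO. Creld1, its membrane-bound relative, averaged 18 ± 1.59 CPM in Sh2-Thap and 21.2 ± 1.72 CPM in Ctrl-Thap, against 20.2 ± 1.69 CPM in Sh2-DMSO and 15.6 ± 0.514 CPM in Ctrl-DMSO. Per kb, Creld2 was 106 times the level of Creld1 in Sh2-Thap and 153 times in Ctrl-Thap, against 14.2 times in Sh2-DMSO and 22.3 times in Ctrl-DMSO. In Sh2 cells the change of Creld1, -0.17, was not called (edgeR adjusted p = 0.0512), and in Ctrl cells it rose by 0.43 (SE 0.08). With 11 alternatives the change in Sh2 cells was called as a fall, at -0.25 to -0.17, among them without any of 9 libraries, Sh2-DMSO replicate 1 and Sh2-Thap replicate 3 included.

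The remaining chaperone members are given by range, with examples chosen after their values were seen. Manf, Calr, Canx, Hspa13 and Dnajc1 rose in both populations, by 0.26 to 2.24 in Sh2 cells and 0.59 to 2.62 in Ctrl cells. Calr and Canx encode the lectins of the calnexin cycle, and Calr changed by 0.93 and Canx by 0.46 in Sh2 cells, against 1.63 and 1.02 in Ctrl cells. Serpinh1, which encodes the collagen chaperone HSP47, averaged 1323 ± 7.29 CPM in Sh2-Thap and 2119 ± 51.6 CPM in Ctrl-Thap, against 1248 ± 21.1 CPM in Sh2-DMSO and 1403 ± 49.6 CPM in Ctrl-DMSO. Its change of 0.08 in Sh2 cells was not called (edgeR adjusted p = 0.0658), though it was with 6 of the alternatives, at 0.08 to 0.20, and in Ctrl cells it rose by 0.60. Uggt1, which returns unfinished glycoproteins to the calnexin cycle, was not called in Sh2 cells (0.04, edgeR adjusted p = 0.392) and rose by 0.62 in Ctrl cells. Scaled by total gene reads alone, Uggt1 was called in Sh2 cells too, at 0.16.

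Per kb, Serpinh1 was the most abundant chaperone in DMSO, with 511 in Sh2-DMSO and 574 in Ctrl-DMSO, followed by Calr and Hspa5. In Sh2-DMSO the lead was slight, with a Serpinh1 to Calr ratio of 1.01 to 1.07 in single libraries, against 1.28 to 1.38 in Ctrl-DMSO. With thapsigargin Hspa5 came first, with 2540.1 per kb in Sh2-Thap and 4901 per kb in Ctrl-Thap, and Calr came next, with 936 per kb in Sh2-Thap and 1342 per kb in Ctrl-Thap. At the low end of the order stood Creld1, with 3.68 to 4.98 per kb over the groups, and Dnajc1 with 4.21 to 7.24.

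**Figure D3:**
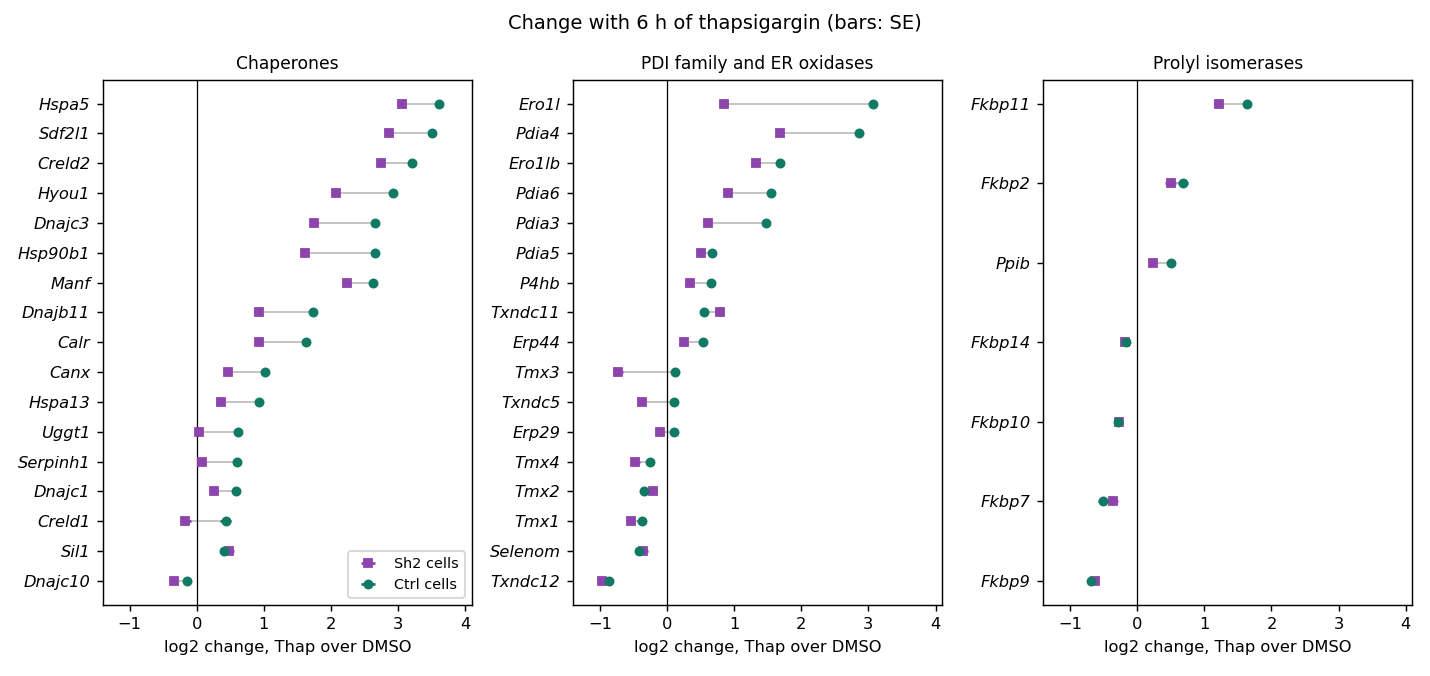
Log2 change with 6 h of thapsigargin over DMSO for each member in Sh2 cells (squares) and Ctrl cells (circles), with SE bars and a line that joins both, ordered within each class by the change in Ctrl cells. Most chaperone squares lie left of their circles, the long line of the middle panel is Ero1l (0.85 in Sh2 cells, 3.07 in Ctrl cells), and the squares and circles of Fkbp14, Fkbp10 and Fkbp9 nearly coincide.

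Among the PDI and oxidase genes, 9 of 17 rose, 7 fell and 1 was not called in Sh2 cells (median 0.26), and 11 rose, 5 fell and 1 was not called in Ctrl cells (median 0.53). Over all genes tested, 35.4% were called higher and 34.4% lower in Sh2 cells, and 37.7% and 37.0% in Ctrl cells. The number of falls therefore does not set the class apart from all genes. The ER oxidases pass electrons from PDI to oxygen and so recharge it for the next disulphide. Ero1l, the widely expressed oxidase, spans chr14:45283087-45318771 on the minus strand (GRCm38), with 5285 exon bases. It had 137, 131 and 135 CPM in Sh2-Thap and 656, 631 and 671 CPM in Ctrl-Thap, against 73, 72.8 and 77 CPM in Sh2-DMSO and 78.1, 70.7 and 83.9 CPM in Ctrl-DMSO. The DMSO groups overlapped, and the Ctrl-Thap libraries stood far above the rest. Ero1l rose 1.81-fold in Sh2 cells (log2 0.85, SE 0.05) and 8.41-fold in Ctrl cells (log2 3.07, SE 0.05). Its gain in CPM over DMSO was 10.4% as large in Sh2 cells as in Ctrl cells. Ero1lb, the second oxidase, averaged 27.9 ± 0.494 CPM in Sh2-Thap and 40.2 ± 1.6 CPM in Ctrl-Thap, against 11.2 ± 0.165 CPM in Sh2-DMSO and 12.5 ± 0.418 CPM in Ctrl-DMSO. Its gain in Sh2 cells was 60.3% of that in Ctrl cells. Per kb, Ero1l stood at 6.06 times the level of Ero1lb in Sh2-Thap and 20.4 times in Ctrl-Thap, against 8.37 times in Sh2-DMSO and 7.85 times in Ctrl-DMSO.

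Pdia4 encodes ERp72, a PDI with several thioredoxin domains, at chr6:47796141-47813430 on the minus strand (GRCm38). It had 729, 738 and 719 CPM in Sh2-Thap and 1863, 1874 and 1913 CPM in Ctrl-Thap, against 226, 231 and 223 CPM in Sh2-DMSO and 245, 264 and 269 CPM in Ctrl-DMSO. The groups did not overlap, and the rise was 1.69 in Sh2 cells and 2.86 in Ctrl cells. Pdia3 encodes ERp57, which works with calnexin and calreticulin on glycoproteins. It averaged 1769.7 ± 31.8 CPM in Sh2-Thap and 2866 ± 40.2 CPM in Ctrl-Thap, against 1161 ± 45.5 CPM in Sh2-DMSO and 1034 ± 11.8 CPM in Ctrl-DMSO. The order of Sh2 and Ctrl cells was thus the opposite in DMSO, where Pdia3 was higher in Sh2 cells by 0.17 (SE 0.04, edgeR adjusted p = 0.00094). Pdia6, another thioredoxin-domain member, rose by 0.91 in Sh2 cells and 1.55 in Ctrl cells, and in DMSO its level was higher by 0.14 in Sh2 cells.

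Per kb, P4hb, the archetype of the family, was the most abundant member of this class in Sh2-Thap (609.5), Sh2-DMSO (481) and Ctrl-DMSO (503). In Ctrl-Thap Pdia3 (913) came first, followed by P4hb (790.0) and Pdia4 (785), and the Pdia4 to P4hb ratio of single Ctrl-Thap libraries ran from 0.97 to 1.02, so their order there lies within the spread. The mean ratio of Pdia4 to P4hb was 0.498 in Sh2-Thap and 0.994 in Ctrl-Thap, against 0.196 in Sh2-DMSO and 0.215 in Ctrl-DMSO.

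The members of this class that fell were Txndc12, Tmx1, Tmx2, Tmx4 and Selenom, in both populations. Txndc12 encodes a small thioredoxin-like protein of the ER lumen. It had 27.9, 31.3 and 28 CPM in Sh2-Thap and 38.5, 36.3 and 34.7 CPM in Ctrl-Thap, against 56.8, 57 and 57.4 CPM in Sh2-DMSO and 68.3, 66.8 and 63.5 CPM in Ctrl-DMSO, a change of -0.97 in Sh2 cells and -0.86 in Ctrl cells. The other fallers changed by -0.53 to -0.21 in Sh2 cells and -0.42 to -0.25 in Ctrl cells. Tmx1, Tmx2 and Tmx4 encode thioredoxin-like proteins anchored in the ER membrane, and Selenom encodes a selenoprotein of the lumen. The fall of Tmx2 in Sh2 cells was not called when scaled by total gene reads alone (-0.09, edgeR adjusted p = 0.147).

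Tmx3, another membrane-anchored member, parted from them. It had 54.2, 60.7 and 52.9 CPM in Sh2-Thap and 101, 98.9 and 102 CPM in Ctrl-Thap, against 96.1, 94 and 87.4 CPM in Sh2-DMSO and 98, 80.1 and 99.2 CPM in Ctrl-DMSO. The Sh2-Thap libraries were below all 9 others, which overlapped among groups. Tmx3 fell by 0.73 on the log2 scale in Sh2 cells (SE 0.07), and in Ctrl cells the change of 0.12 was not called (edgeR adjusted p = 0.0791). It was called as a rise with 4 alternatives, at 0.15 to 0.17, among them without Ctrl-DMSO replicate 1 or 3.

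Txndc11, a membrane protein with thioredoxin domains, was the member whose rise was called larger in Sh2 cells than in Ctrl cells. It had 96.5, 88.7 and 95.1 CPM in Sh2-Thap and 95.7, 99.2 and 98 CPM in Ctrl-Thap, against 54.1, 54.6 and 53.1 CPM in Sh2-DMSO and 65.1, 67.1 and 67.9 CPM in Ctrl-DMSO. The thapsigargin groups overlapped, and the Sh2-DMSO libraries lay below the Ctrl-DMSO libraries. The rise was 0.79 in Sh2 cells and 0.55 in Ctrl cells. Exons of Txndc11 overlap those of the antisense gene Snn by 75 bases, and Snn held 30352 reads in all libraries, against 32580 reads of Txndc11.

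Txndc5 and Erp29, chosen after their values were seen, rested on small changes. Txndc5 encodes a PDI with thioredoxin domains and fell by 0.38 in Sh2 cells, while its rise of 0.11 in Ctrl cells (edgeR adjusted p = 0.0182) was lost with 5 alternatives, at an edgeR adjusted p = 0.0632 to 0.184, among them without Ctrl-DMSO replicate 1 or 3 or Ctrl-Thap replicate 3. Erp29, a redox-inactive relative of PDI, was called in Ctrl cells at 0.11 (edgeR adjusted p = 0.0462), and that call was lost when any of 10 libraries was left out, at an adjusted p = 0.0507 to 0.115. Its exons share 2390 bases with the antisense genes Naa25 and Tmem116, which held 30958 reads in all libraries against 30322 of Erp29, and the labels do not state whether reads were counted by strand, so its level is uncertain. The remaining 3 genes of this class, P4hb, Pdia5 and Erp44, rose in both populations, by 0.26 to 0.50 in Sh2 cells and 0.53 to 0.67 in Ctrl cells.

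**Figure D4:**
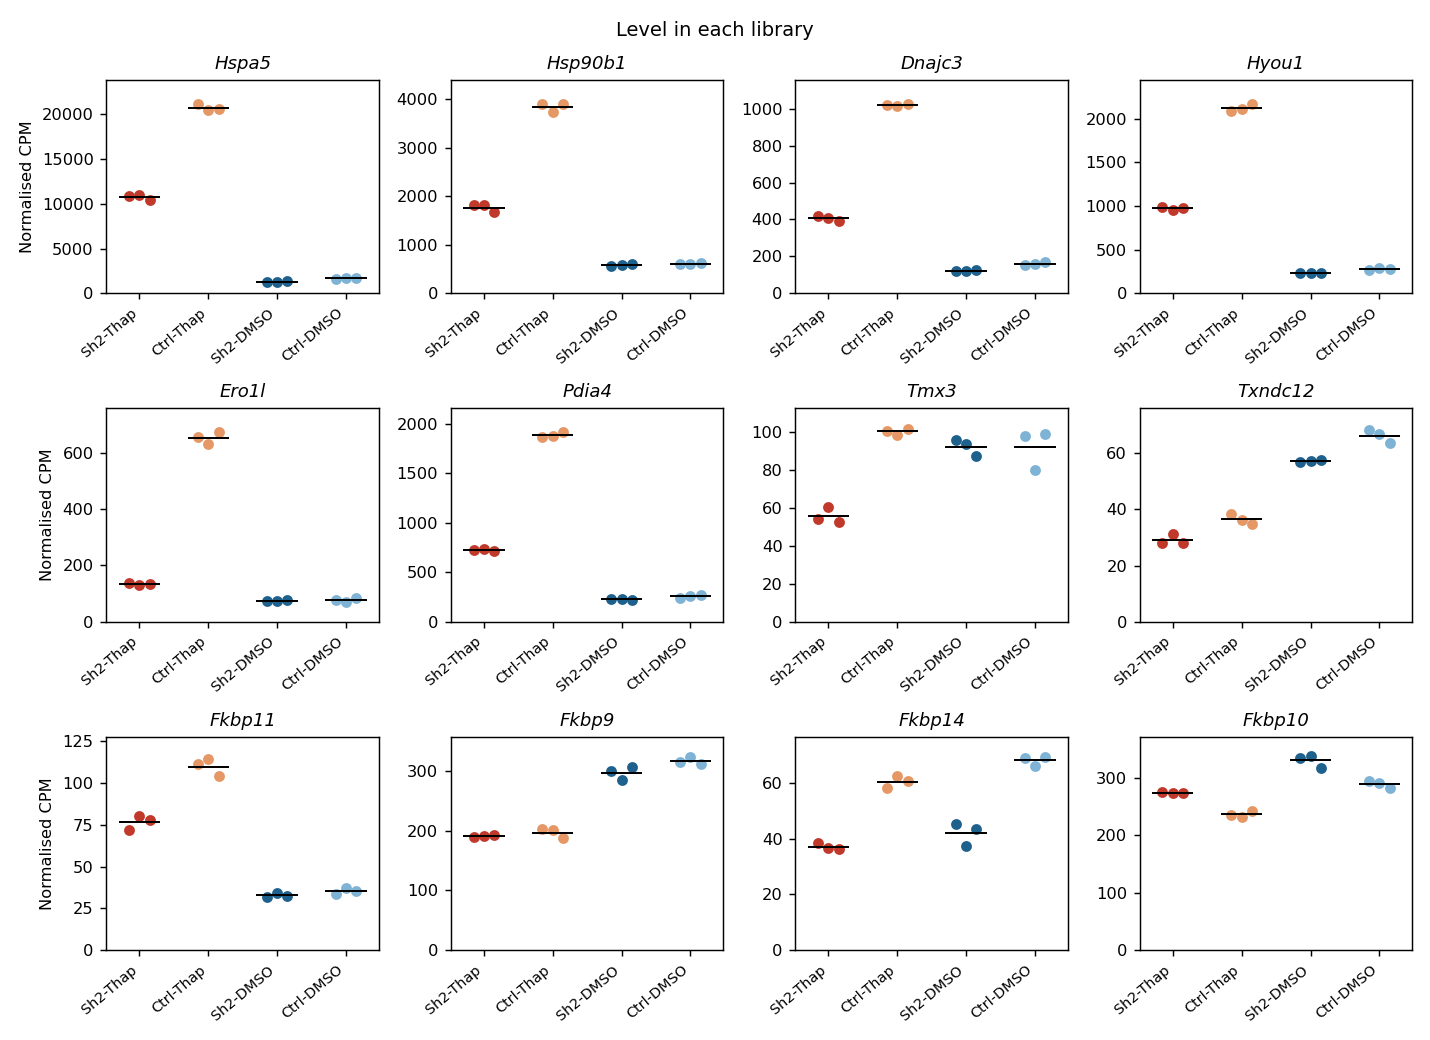
Normalised CPM of 12 members in each library (points), with group means as horizontal lines, on linear axes that start at 0. Hspa5, Hsp90b1, Dnajc3, Hyou1, Ero1l and Pdia4 peak in Ctrl-Thap, Tmx3 is low in Sh2-Thap, Txndc12 and Fkbp9 are lower in both thapsigargin groups, and Fkbp14 is lower in both Sh2 groups.

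The prolyl isomerase genes moved in both directions. In Sh2 cells 3 of 7 rose and 4 fell (median -0.18), and in Ctrl cells 3 rose and 4 fell (median -0.17), where over all genes tested 35.4% were called higher and 34.4% lower in Sh2 cells, and 37.7% and 37.0% in Ctrl cells. Counts of 7 genes at these sizes do not set the class apart from all genes. Fkbp11, a membrane-anchored isomerase typical of secretory cells, had 71.9, 80.1 and 77.6 CPM in Sh2-Thap and 111, 114 and 104 CPM in Ctrl-Thap, against 32, 34 and 32.2 CPM in Sh2-DMSO and 33.4, 37 and 35.2 CPM in Ctrl-DMSO. Only its DMSO groups overlapped. The rise was 1.22 in Sh2 cells and 1.64 in Ctrl cells, the only rise of the class by at least 1. Fkbp2 averaged 36.6 ± 1.7 CPM in Sh2-Thap and 40 ± 2.35 CPM in Ctrl-Thap, against 25.9 ± 3.38 CPM in Sh2-DMSO and 25.1 ± 2.28 CPM in Ctrl-DMSO. Ppib encodes cyclophilin B, which joins the complex that modifies prolines of collagen, and rose by 0.23 in Sh2 cells and 0.50 in Ctrl cells. Exons of Ppib overlap the antisense gene Snx22 by 825 bases, and Snx22 held 159 reads in all libraries, against 15526 reads of Ppib. These reads do not show how many of Ppib's own reads were lost from the shared bases, so its level is uncertain.

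By these counts Fkbp9 and Fkbp10 were the most abundant of the class per kb in all 4 groups, and both fell. The place of Ppib in this order is uncertain, as its count may lack reads from shared bases. Fkbp9 had 189.5, 191 and 193 CPM in Sh2-Thap and 202, 200.4 and 188 CPM in Ctrl-Thap, against 299, 285 and 306 CPM in Sh2-DMSO and 315, 324 and 312 CPM in Ctrl-DMSO. Both thapsigargin groups overlapped each other and lay below both DMSO groups, with a change of -0.63 in Sh2 cells and -0.69 in Ctrl cells. Fkbp10 encodes FKBP65, a collagen chaperone mutated in brittle bone disease. It had 275, 274 and 274 CPM in Sh2-Thap and 236, 232 and 243 CPM in Ctrl-Thap, against 335, 339 and 318 CPM in Sh2-DMSO and 294, 292 and 282 CPM in Ctrl-DMSO. It fell by 0.27 in Sh2 cells and by 0.29 in Ctrl cells, and the Sh2 libraries were above the Ctrl libraries in each treatment.

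Fkbp14 and Fkbp7 fell as well. Fkbp14 encodes FKBP22, a further collagen chaperone, and had 38.5, 36.5 and 36.2 CPM in Sh2-Thap and 58, 62.4 and 60.6 CPM in Ctrl-Thap, against 45.2, 37.5 and 43.5 CPM in Sh2-DMSO and 68.9, 66.1 and 69.2 CPM in Ctrl-DMSO. Both Sh2 groups lay below both Ctrl groups, and the change with thapsigargin was -0.18 in Sh2 cells and -0.17 in Ctrl cells. The fall in Sh2 cells was not called without Sh2-DMSO replicate 1 (-0.13, edgeR adjusted p = 0.0747) or when scaled by total gene reads (-0.06, adjusted p = 0.376). Exons of Fkbp14 overlap the antisense gene Plekha8 by 208 bases, and Plekha8 held 11695 reads in all libraries, against 21752 reads of Fkbp14. Fkbp7 averaged 19.1 ± 0.28 CPM in Sh2-Thap and 22.7 ± 0.882 CPM in Ctrl-Thap, against 24.6 ± 1.35 CPM in Sh2-DMSO and 32.5 ± 2.59 CPM in Ctrl-DMSO.

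Between Sh2-Thap and Ctrl-Thap cells, 2 members were higher, 34 were lower and 5 were not called, with a median of -0.52 against 0.016 over all genes tested, where 28.5% of all genes tested were higher and 28.4% lower. By at least 1, 5 members were lower, where 5.96% of all genes were. All 17 chaperones were lower (median -0.68), as were 13 of 17 PDI and oxidase genes (median -0.37) and 4 of 7 prolyl isomerase genes (median -0.25). The lowest against Ctrl-Thap was Ero1l at -2.28 (SE 0.05), where the Sh2-Thap level was 20.6% of the Ctrl-Thap level. Pdia4 followed at -1.37, with 38.7% of the Ctrl-Thap level, and Dnajc3 at -1.33, with 39.8%. Hspa5 stood at 51.8% of its Ctrl-Thap level (-0.95, SE 0.04). Fkbp10 and Tmx2 were the members called higher, by 0.21 and 0.18. The call of Tmx2 was lost without Sh2-Thap replicate 3 (0.13, edgeR adjusted p = 0.0849), and the lower call of Creld1 (-0.23) was lost without Ctrl-Thap replicate 1 or Sh2-Thap replicate 1 (adjusted p = 0.0879 and 0.0901).

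The Sh2-Thap libraries had TMM factors of 1.048 to 1.073 and the other libraries 0.9666 to 0.9972, so this comparison depends on the scaling. With total gene reads alone, the median of all genes tested shifted by 0.133, 66.6% of the genes called were higher in place of 50.1%, and 4 members were higher and 30 lower. All chaperones called in that setting were lower, 15 of 17.

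In DMSO the knockdown was accompanied by smaller differences. Between Sh2-DMSO and Ctrl-DMSO cells, 8 members were higher, 18 were lower and 15 were not called, with a median of -0.10, where 25.0% of all genes were higher and 26.5% lower, and 0 members differed by 1 or more, where 5.05% of all genes were higher and 3.85% lower by that much. Among chaperones 3 were higher and 11 lower, among PDI and oxidase genes 4 were higher and 5 lower, and among prolyl isomerases 1 was higher and 2 lower. With total gene reads alone, 4 PDI and oxidase genes were higher and 9 lower. The genes higher in Sh2-DMSO were Calr, Canx, Creld1, Pdia3, Pdia6, Erp29, Tmx1 and Fkbp10, by 0.14 to 0.37. The most different was Fkbp14 at -0.70 (SE 0.06, edgeR adjusted p = 6.4e-12), followed by Tmx4 at -0.48, with 38.8, 31.8 and 38.3 CPM in Sh2-DMSO, against 50.5, 47.6 and 53.8 CPM in Ctrl-DMSO. Hspa5 was lower by 0.39 (SE 0.04) and Dnajc3 by 0.41 (SE 0.05) in Sh2-DMSO. Ero1l, so different with thapsigargin, was not called in DMSO, at -0.06 with a 95% interval from -0.17 to 0.04 (edgeR adjusted p = 0.326).

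The difference between the thapsigargin changes of Sh2 and Ctrl cells was tested directly. It was called below 0 for 29 members, above 0 for 1 and not called for 11, with a median of -0.38 against 0.013 over all genes, where 17.7% of all genes tested were called below 0 and 17.6% above. It was below -1 for 3 members, where 3.50% of all genes were. These 3 were Ero1l at -2.22 (95% interval from -2.36 to -2.07, edgeR adjusted p = 2.35e-21), Pdia4 at -1.17 (-1.3 to -1.05) and Hsp90b1 at -1.05 (-1.18 to -0.93). Chaperones were below 0 for 16 of 17, and the exception was Sil1. PDI and oxidase genes were below 0 for 11 of 17 and above for 1, Txndc11, at 0.24 (0.11 to 0.38, edgeR adjusted p = 0.0041). Prolyl isomerases were below 0 for 2 of 7, Fkbp11 at -0.41 and Ppib at -0.27. For Fkbp14, lower in Sh2 cells in both treatments, the difference was -0.01 with an interval from -0.17 to 0.16, and for Fkbp10 it was 0.02 with an interval from -0.10 to 0.14.

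With total gene reads alone, the median over all genes shifted by 0.158 and 75.5% of calls were above 0 in place of 49.9%, with 23 members below 0 and 6 above. The chaperones then had 15 calls below 0 and 0 above, the PDI and oxidase genes 7 and 3, and the prolyl isomerases 1 and 3. The median of the prolyl isomerases was -0.01 with TMM and 0.15 with total gene reads alone, a move about as large as that of all genes. The calls of Dnajc10, Ero1lb, Ppib, Pdia5, Erp29 and Erp44 were lost there, and those of Tmx2, Selenom, Fkbp7, Fkbp9 and Fkbp10 were gained above 0. The call of Pdia5 (-0.17, edgeR adjusted p = 0.0454) was lost when any of 8 libraries was left out, at an adjusted p = 0.0572 to 0.135, and that of Erp29 (-0.21) without Sh2-DMSO replicate 2 or Sh2-Thap replicate 1, at an adjusted p = 0.113 and 0.057.

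**Figure D5:**
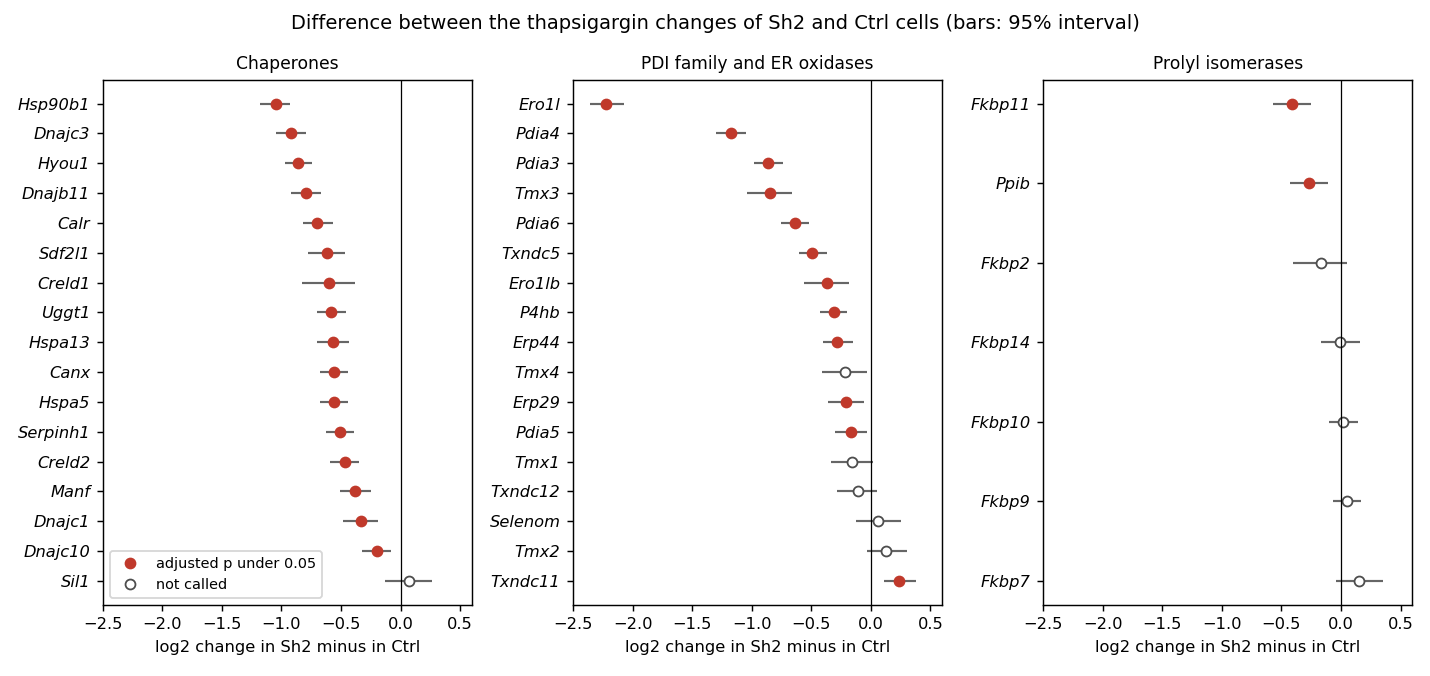
Difference between the log2 thapsigargin change of Sh2 cells and that of Ctrl cells for each member, with 95% intervals, ordered within each class. Filled points have an adjusted p under 0.05. All chaperones but Sil1 lie below 0, Ero1l lies farthest out at -2.22, and Txndc11 is the filled point above 0. With total gene reads alone the prolyl isomerases Fkbp7, Fkbp9 and Fkbp10 are also called above 0.

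Where the windows held ERSE letters, all 8 genes rose by at least 1 in Ctrl cells, by 1.02 (Canx) to 3.61 (Hspa5). Of all 41 members, those without a window included, 16 rose by at least 1 in Ctrl cells, as did 16.1% of all genes tested. In Sh2 cells all 8 genes rose too, but Calr, Canx and Pdia6 by less than 1. The differences of the 8 genes between populations ran from -1.05 (Hsp90b1) to -0.37 (Ero1lb). Of the 23 members with a window and none of the 4 elements, some also rose by at least 1 in Ctrl cells. These were Sdf2l1 (3.50), Ero1l (3.07), Pdia4 (2.86), Fkbp11 (1.64) and Pdia3 (2.77-fold). Txndc5 and Txndc11, with UPRE letters, had differences of -0.49 for Txndc5 and 0.24 for Txndc11. No test was made of these letters against the changes.

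Other genes of ER folding outside the 41 moved in both directions. Of 28 such genes, 25 were tested, and with thapsigargin 8 rose and 16 fell in Sh2 cells (median -0.29), while 8 rose and 13 fell in Ctrl cells (median -0.14). Over all genes tested, 35.4% were called higher and 34.4% lower in Sh2 cells, and 37.7% and 37.0% in Ctrl cells. Dnajb9, which encodes the BiP cochaperone ERdj4, averaged 298 ± 13.8 CPM in Sh2-Thap and 519 ± 3.65 CPM in Ctrl-Thap, against 41.2 ± 1.68 CPM in Sh2-DMSO and 48.1 ± 3.68 CPM in Ctrl-DMSO. Gpx8, an ER glutathione peroxidase-like protein that uses the peroxide of the oxidases, averaged 53.8 ± 3.97 CPM in Sh2-Thap and 32.7 ± 0.542 CPM in Ctrl-Thap, against 242 ± 7.48 CPM in Sh2-DMSO and 161 ± 3.19 CPM in Ctrl-DMSO. The log2 change of Gpx8 was -2.17 in Sh2 cells and -2.30 in Ctrl cells, opposite in sign to Ero1l. The partners of Ppib in the collagen complex, named after their values were seen, moved apart: P3h1 rose by 0.45 in Sh2 cells and 0.92 in Ctrl cells, and Crtap changed by -1.06 in Sh2 cells and -1.14 in Ctrl cells.

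Among prolyl isomerases outside the ER more fell than rose. Of 14 cytosolic and nuclear genes, 1 rose and 10 fell with thapsigargin in Sh2 cells (median -0.53), where total gene reads alone gave 4 and 10, and 4 rose and 10 fell in Ctrl cells (median -0.49). For all genes tested the shares were 35.4% higher and 34.4% lower in Sh2 cells, and 37.7% and 37.0% in Ctrl cells. The most changed in Ctrl cells were Fkbp5, at -0.74 in Sh2 cells and -1.10 in Ctrl cells, and Ppih, at -0.68 in Sh2 cells and -0.94 in Ctrl cells. Between Sh2-Thap and Ctrl-Thap cells 7 of these 14 were higher and 2 lower, where 28.5% of all genes tested were higher and 28.4% lower. For the difference of the changes 2 were above 0 and 3 below, where total gene reads alone gave 4 above and 1 below. Of all genes tested 17.6% were above 0 and 17.7% below, so these counts do not set the list apart.

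The genes of the stress sensors and their factors were set beside the members. Of 10, 7 rose and 2 fell in Sh2 cells (median 0.97), and 8 rose and 1 fell in Ctrl cells (median 1.37). For all genes tested the shares were 35.4% higher and 34.4% lower in Sh2 cells, and 37.7% and 37.0% in Ctrl cells. All 10 were lower in Sh2-Thap than in Ctrl-Thap (median -0.54), with total gene reads alone too, where 28.4% of all genes tested were lower in the main fit. Ddit3, which encodes CHOP, averaged 193 ± 10.5 CPM in Sh2-Thap and 405 ± 6.47 CPM in Ctrl-Thap, against 18 ± 1.23 CPM in Sh2-DMSO and 16.8 ± 0.515 CPM in Ctrl-DMSO. Another identifier shares the symbol Ddit3, and these levels are those of the identifier with the longer exon model. Atf4 averaged 1265 ± 18.3 CPM in Sh2-Thap and 1758 ± 18.5 CPM in Ctrl-Thap, against 489.7 ± 10.5 CPM in Sh2-DMSO and 424 ± 11.6 CPM in Ctrl-DMSO. Atf6 and Xbp1, named after their values were seen, differed in direction: the difference of the thapsigargin changes was -0.73 for Atf6 and 0.34 for Xbp1. Counts per gene do not tell spliced from unspliced Xbp1.

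Several members share exon bases with a neighbour. Their counts could hold reads of it, or lack their own reads from the shared bases. The labels state neither the counting tool nor whether it used strand. Beside those named above, Manf shares 312 bases with antisense genes that held 78809 reads together with its other neighbour, against 138268 of its own. Hsp90b1 shares 415 bases with an antisense gene and 217 with genes on its strand, which together held 5856 reads, against 728420. Dnajc1 shares 749 bases with Mllt10, which held 15764 reads, against 26012 of Dnajc1. Txndc5 shares 535 bases with Bmp6 and Gm31834, which held 449 reads, against 165603. Fkbp10 shares 193 bases with Nt5c3b, which held 20955 reads, against 116671. Tmx2 shares 252 bases with Gm28635 on its own strand and 19 with the antisense gene Med19, which together held 16271 reads, against 19877. Overlaps of Pdia3, Pdia4 and Pdia6 were 14 to 50 bases.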

How the data were processed

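Poly-A RNA libraries of 12 C2C12 samples were analysed from read counts per gene. The deposited counts are whole numbers per Ensembl gene and were used as deposited. Per the submitters' processing notes, the tools were Trim Galore, STAR 2.5.3a, bedtools 2.31.0 and DESeq2, and the builds mm10 and hg38 are both listed. The counter, annotation and strand setting are not given in the sources used here. In each library 5 entries that name no gene held 13.32% to 14.61% of reads and were left out of library sizes and tests.

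Identifiers were matched to GENCODE vM21 (53706 of 53801, with 95 unmatched). edgeR 4.0.16 (R 4.3.3) used its filter by expression, TMM scaling and a robust quasi-likelihood fit of all 4 groups with 8 residual degrees of freedom, and p-values were adjusted by Benjamini-Hochberg over 15828 genes, while 37973 were not tested. The SE is the log2 change over the root of F, and 95% intervals use the t quantile. Replicates of a group correlated at 0.9979 to 0.9987 (Pearson, across genes, log2 of CPM plus 1), and no pair was identical or within counting noise. The fit was tested on simulated data. Promoters came from RefSeq, GRCm38.p6. Python 3.11.15 was used.

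The members and lists were chosen with earlier results of these data known. Named genes were, per class, the 5 called members with the largest change with thapsigargin in Ctrl cells, the 3 largest for each knockdown comparison and for the difference of the changes, members not called or opposite to their class with thapsigargin in Ctrl cells, and 2 genes per comparison list, all with at least 5 CPM in a group. Others are given by counts, ranges and ranks per kb, for a changed call or an overlap, or are said to be chosen after their values were seen. P4hb was named for its rank per kb, with its values known. Alternatives were other scalings, filters, DESeq2 1.42.0, fits of the compared groups only, a replicate block, a size threshold and leaving out each library.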

Additional observations from a re-analysis of the deposited data

Results flagged for a closer look

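The log2 change with thapsigargin differed between Sh2 and Ctrl cells for 30 of the 41 genes by edgeR's test of the difference itself (Sh2 minus Ctrl, adjusted p under 0.05 over all genes tested). The chaperone genes below 0 were Hsp90b1 at -1.05, Dnajc3 at -0.92, Hyou1 at -0.86, Dnajb11 at -0.79 and Calr at -0.70. Sdf2l1 followed at -0.62, Creld1 at -0.60, Uggt1 at -0.58, Hspa13 at -0.57, and Hspa5 and Canx at -0.56 each. Serpinh1 stood at -0.51, Creld2 at -0.47, Manf at -0.38, Dnajc1 at -0.33 and Dnajc10 at -0.20. Among PDI and oxidase genes Ero1l stood at -2.22, Pdia4 at -1.17, Pdia3 at -0.86, Tmx3 at -0.85 and Pdia6 at -0.64. Txndc5 had -0.49, Ero1lb -0.37, P4hb -0.31, Erp44 -0.28, Erp29 -0.21 and Pdia5 -0.17, and Txndc11 had 0.24. The prolyl isomerase genes were Fkbp11 at -0.41 and Ppib at -0.27.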

How the results depend on the processing

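Of 205 results (41 genes in 5 comparisons), 169 kept their call under every alternative run other than the size threshold, 16 lost it and 20 gained one under at least 1 alternative, and 0 reversed as a call. With a log2 change of at least 1 also required, members higher and lower numbered 10 and 0 for thapsigargin in Sh2 cells, 16 and 0 in Ctrl cells, 0 and 0 for Sh2-DMSO against Ctrl-DMSO, 0 and 5 for Sh2-Thap against Ctrl-Thap, and 0 and 3 for the difference of the changes. Total gene reads alone gave 4 members higher in Sh2-Thap than in Ctrl-Thap and 6 above 0 for the difference, and by its construction this scaling leaves out the higher factors of the Sh2-Thap libraries. Leaving out each library in turn gave 25 higher and 12 to 14 lower for thapsigargin in Sh2 cells, 28 to 30 higher and 10 lower in Ctrl cells, and 8 higher and 18 to 20 lower for Sh2-DMSO against Ctrl-DMSO. It gave 2 higher and 33 to 34 lower for Sh2-Thap against Ctrl-Thap, and 1 above and 28 to 30 below 0 for the difference. Hspa13 lost its lower level in Sh2-DMSO without Ctrl-DMSO replicate 3 (-0.11, edgeR adjusted p = 0.0605), and the cause was not tested.

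With a replicate block, members higher and lower were 26 and 13 for thapsigargin in Sh2 cells, 30 and 10 in Ctrl cells, 8 and 19 for Sh2-DMSO against Ctrl-DMSO, 2 and 34 for Sh2-Thap against Ctrl-Thap, and 1 and 29 for the difference, so no count moved by over 1.5 times. No pairing by replicate number was detected. Over 18 pairs of libraries with the same number, deviations from the group means correlated at -0.03 to 0.077, with 0 above 0.1. Other pairs correlated at -0.085 to 0.08. Low correlations cannot show that libraries with the same number were handled apart.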
